A study of Arabidopsis thaliana with 4 samples.

Results

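GFP-positive deep cells of the Arabidopsis thaliana line pCORTEX:GFP were the barcodes of 1 root library with at least 20000 unique molecular identifiers (UMIs), at most 10% of UMIs on mitochondrial and plastid genes, and at least 1 UMI of GFP. They numbered 407, or 13.3% of the 3065 deep cells of the line, and were set against the 2658 deep cells with 0 GFP UMIs. The line's table held 11731 barcodes, of 41823 in the whole series. In this line the CORTEX promoter drives GFP. The endogenous gene, called CORTEX below, was taken to be AT1G09750, an aspartyl protease family gene, from general knowledge of the line and not from the labels. The other 3 libraries came from pWER:GFP, in which the promoter of the epidermis gene WER drives GFP, from PET111, an enhancer trap line with a YFP row, and from pSCR:GFP, driven by the promoter of the ground tissue gene SCR. Every line carried a reporter and had 1 library, and all 4 were made from protoplasts of cut root tips 4 to 5 days after germination with droplet sequencing of transcript 3′ ends. The number of plants pooled per library is not given in the sources used here. Cells of 1 library are not replicates of a line, and line and library cannot be told apart. The cells were chosen by their GFP and total UMIs, so the contrast is a description with no test and no p-value.

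The cortex is the outer layer of the ground tissue and lies between the epidermis and the endodermis. Cortex and endodermis arise from the same stem cell daughters, in a division that depends on SHR, which moves in from the stele, on SCR, and on zinc finger proteins such as JKD. Cortex cells then enlarge as their walls are loosened and rebuilt, while endodermis cells deposit the lignified Casparian strip that seals the space between cells.

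The level of CORTEX went with the reporter. It had 2125 UMIs in GFP-positive cells, or 51.4 UMIs per 1000000 UMIs of the group (CPM; exact Poisson 95% interval 49.2 to 53.6), against 175 UMIs, or 0.800 CPM (0.686 to 0.928), in GFP-negative cells. A CORTEX UMI was seen in 321 of 407 GFP-positive cells, 78.9% (exact Clopper-Pearson 95% interval 74.6 to 82.7%), and in 86 of 2658 GFP-negative cells, 3.24% (2.60 to 3.98%). With each cell thinned to 20000 UMIs the shares were 52.1% and 1.50%. Among the 146 deep cells rich in root hair markers, which should lack CORTEX, 6 had a CORTEX UMI, 4.11% (1.52 to 8.73%), at a median of 60196 UMIs per cell, against 89943 in GFP-positive cells. These hair-rich cells included 6 GFP-positive cells, and their share was the highest of 8 groups rich in other markers. A CORTEX UMI was seen in 2 of 160 endodermis-rich cells (1.25%), 2 of 142 root cap-rich cells (1.41%), 1 of 67 non-hair-rich cells (1.49%), 1 of 80 stele-rich cells, 1 of 121 mitosis-rich cells, 0 of 68 phloem-rich cells and 0 of 49 xylem-rich cells. The share in GFP-negative cells was thus below that of hair-rich cells and above those of the other 7 groups, with overlapping intervals, and how much of it was background was not tested. All intervals cover counting error only.

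GFP-positive cells carried cortex markers, and few of them were rich in markers of other classes. The summed level of 7 cortex markers had a median of 409.6 CPM in GFP-positive cells (95th percentile 1191) and 0 CPM in GFP-negative cells (95th percentile 224). Of the 7 markers, 5 were at least 2-fold higher in GFP-positive cells over the pooled UMIs, where 3.97% of all genes were. The other 2 passed 2-fold in neither direction, and the lowest had a log2 ratio, as defined below, of -0.32. TT7 of this list is also counted with the flavonoid genes below, and C/VIF2 and AT1G62510 among the highest ratios. Cells were called rich in a list when its summed level was at least 5 times the mean of all deep cells, a cut along a range and not a cell type. Of the 214 cells rich in cortex markers, 170 were GFP-positive, 79.4% (73.4 to 84.6%), and 104 cells lay within 20% of the cut. For the other lists below, 4 to 142 cells lay that near, the most for the non-hair list. GFP was seen in 3 of 160 endodermis-rich cells, 6 of 146 hair-rich cells, 4 of 142 root cap-rich cells, 1 of 68 phloem-rich cells, 1 of 80 stele-rich cells and 1 of 121 mitosis-rich cells. It was seen in 0 of 67 non-hair-rich cells, which allows a share of up to 4.48% when 3 counts are set over the cells (Clopper-Pearson upper bound 5.36%), and in 0 of 49 xylem-rich cells, which allows a share of up to 6.12% by the same count (upper bound 7.25%). In all, 16 GFP-positive cells were rich in the markers of another class or of mitosis.

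GFP-positive cells were deeper than GFP-negative cells. They held a median of 89943 UMIs (range 20109 to 546208) and 7973 genes, against 54140.5 UMIs (range 20017 to 765480) and 6550 genes in GFP-negative cells. The summed depth was 41375165 UMIs for GFP-positive and 218784181 UMIs for GFP-negative cells, and the median organelle share was 0.341% and 0.726%. The 4 libraries shared 6 deep barcodes in all, 1 of them a GFP-positive cell. No doublet caller was applied and no cells were removed as doublets.

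Across the genome the GFP-negative side held more genes. The ratio of each gene was the log2 of its CPM plus 5 in GFP-positive cells over its CPM plus 5 in GFP-negative cells, for the 18402 genes other than GFP with at least 100 UMIs. Of these, 730 genes, the 3.97% given above, were at least 2-fold higher in GFP-positive cells. At least 2-fold lower were 1295 genes (7.04%), and the median log2 ratio was -0.08. Counts of list members below are to be read beside these shares of all genes. AT1G26650 lay just inside the upper limit at 1.0003 and FRO3 just outside it at 0.9990, and at the lower limit AT3G28900 stood at -1.0005 and AT3G14390 at -0.9987. The added 5 CPM holds the ratios of weak genes near 0, and with 1 CPM added 1153 genes were higher and 3069 lower. Because UMIs were summed, deep cells weigh more than shallow ones within a group.

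**Figure D1:**
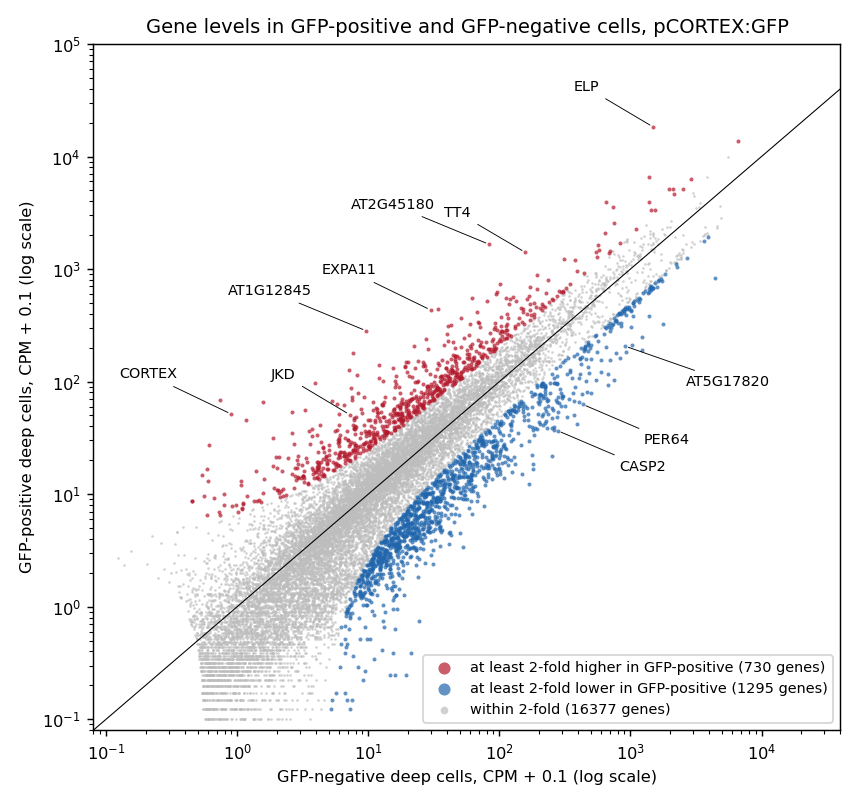
Level of each of the 18402 genes in GFP-positive cells (vertical) and GFP-negative cells (horizontal), as CPM plus 0.1 on log axes, with the diagonal of equal levels. The 730 red genes were at least 2-fold higher and the 1295 blue genes at least 2-fold lower in GFP-positive cells after 5 CPM were added to both. ELP was the most abundant of the labelled genes, and CASP2 and PER64 lay far below the diagonal.

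The highest ratios belonged to genes of the cell wall, small secreted proteins, transporters and the flavonoid pathway. AT1G12845, which is annotated as an uncharacterized protein, led with 283 CPM in GFP-positive cells and 9.55 in GFP-negative cells (log2 ratio 4.30, counting interval 4.24 to 4.37). AT2G45180, of the family of lipid transfer and seed storage proteins, had 1658 CPM in GFP-positive cells and 83.5 in GFP-negative cells (log2 ratio 4.23, counting interval 4.20 to 4.26). ELP (AT1G12090), an extensin-like protein, was the most abundant of the 15 highest, with 18332 CPM in GFP-positive cells and 1488 in GFP-negative cells (log2 ratio 3.62, counting interval 3.61 to 3.63). Read cell by cell, the quartiles of ELP were 11950.1, 18669 and 26052 CPM in GFP-positive cells and 8.31, 40.9 and 365 in GFP-negative cells, so the levels were high in most GFP-positive cells and low in most of the others. The quartiles of AT2G45180 were 835, 1709 and 2383 CPM in GFP-positive cells and 0, 0 and 20.3 in GFP-negative cells. Of cell wall enzymes, EXPA11, an expansin that loosens walls, had 433 CPM in GFP-positive cells and 29.8 in GFP-negative cells (log2 ratio 3.65), and BXL1, a beta-xylosidase that trims wall polysaccharides, had 443 CPM in GFP-positive cells and 33.8 in GFP-negative cells (log2 ratio 3.53). PG2, annotated as a polygalacturonase, had 97.0 CPM in GFP-positive cells and 3.83 in GFP-negative cells (log2 ratio 3.53). These 3 wall genes were above 50 CPM in the median GFP-positive cell and at 0 in the median GFP-negative cell.

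C/VIF2, an inhibitor of the enzymes that split sucrose, had 179.8 CPM in GFP-positive cells and 7.53 in GFP-negative cells (log2 ratio 3.88). ATS3, an embryo-specific protein by its annotation, had 68.8 CPM in GFP-positive cells and 0.644 in GFP-negative cells (log2 ratio 3.71), yet its lower quartile over GFP-positive cells was 0 and its median 14.5 CPM, so it marked a subset of them. The transporters AT5G18840 and AT3G05150, both of the major facilitator superfamily, had 65.6 and 139.7 CPM in GFP-positive cells, against 1.48 and 11.9 CPM in GFP-negative cells. UMAMIT33, of a family of amino acid transporters, had 45.8 CPM in GFP-positive cells and 1.07 in GFP-negative cells (log2 ratio 3.07). The Rossmann-fold enzyme gene AT1G76470 had a log2 ratio of 3.45, and AT1G62510, a lipid transfer family member and cortex marker, 3.18. CORTEX stood at 3.28 and TT4, the chalcone synthase that opens the flavonoid pathway, at 3.12, which completes the 15 highest.

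The other 3 libraries gave the same measure in cells that GFP in the pCORTEX:GFP line did not choose. Their deep cells were split by CORTEX itself, at 1 UMI or more against 0, which gave 145 CORTEX-positive and 1860 CORTEX-negative cells in pWER:GFP, 194 and 1303 in PET111, and 125 and 1491 in pSCR:GFP. Leaving out CORTEX, 238 of the 729 higher genes (32.6%) were at least 2-fold higher in all 3 libraries, where 249 of all 18401 genes (1.35%) were and 95.6% of those 249 were among the genes higher in GFP-positive cells. Singly, 383 of the 729 were at least 2-fold higher in pWER:GFP, where 2.59% of all genes were, 688 in PET111 (5.95%) and 258 in pSCR:GFP (1.62%). Of the 1295 lower genes, 288 were at least 2-fold lower in pWER:GFP (2.48% of all genes), 1086 in PET111 (8.75%) and 301 in pSCR:GFP (2.93%). On the GFP-negative side 148 of 1295 genes (11.4%) were at least 2-fold lower in all 3 libraries, where 167 of all genes (0.908%) were, and these made up 88.6% of the 167. The sign was the same in all 3 libraries for 697 of the 729 higher genes and for 1236 of the 1295 lower genes, against 4677 and 8290 of all 18401 genes. Without pSCR:GFP, the shallowest of the 3 in total UMIs of deep cells, 373 of the higher genes were at least 2-fold higher in both other libraries. With 3 libraries an exact two-sided sign-flip test cannot give a p below 0.25, so none was made.

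All of the 15 highest genes were at least 2-fold higher in CORTEX-positive cells of each of the other 3 libraries, with log2 ratios from 2.01 to 4.78, CORTEX being fixed by the split. The 5 genes with the highest mean over these libraries were AT2G45180 (4.53 ± 0.38, SD, n = 3 libraries), ELP (4.17 ± 0.49), AT1G12845 (4.15 ± 0.58), EXPA11 (4.14 ± 0.60) and TT4 (4.04 ± 0.17). ELP was high in CORTEX-positive cells of every library. In pWER:GFP it had 10268 CPM in CORTEX-positive cells and 510.2 in CORTEX-negative cells, in PET111 20214 and 849, and in pSCR:GFP 10226 and 827. TT4 had lower levels in both groups. In pWER:GFP it had 686 CPM in CORTEX-positive cells and 32.1 in CORTEX-negative cells, in PET111 832 and 46.3, and in pSCR:GFP 466 and 26.9. In each library the CORTEX-positive cells were the higher group for both genes.

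**Figure D2:**
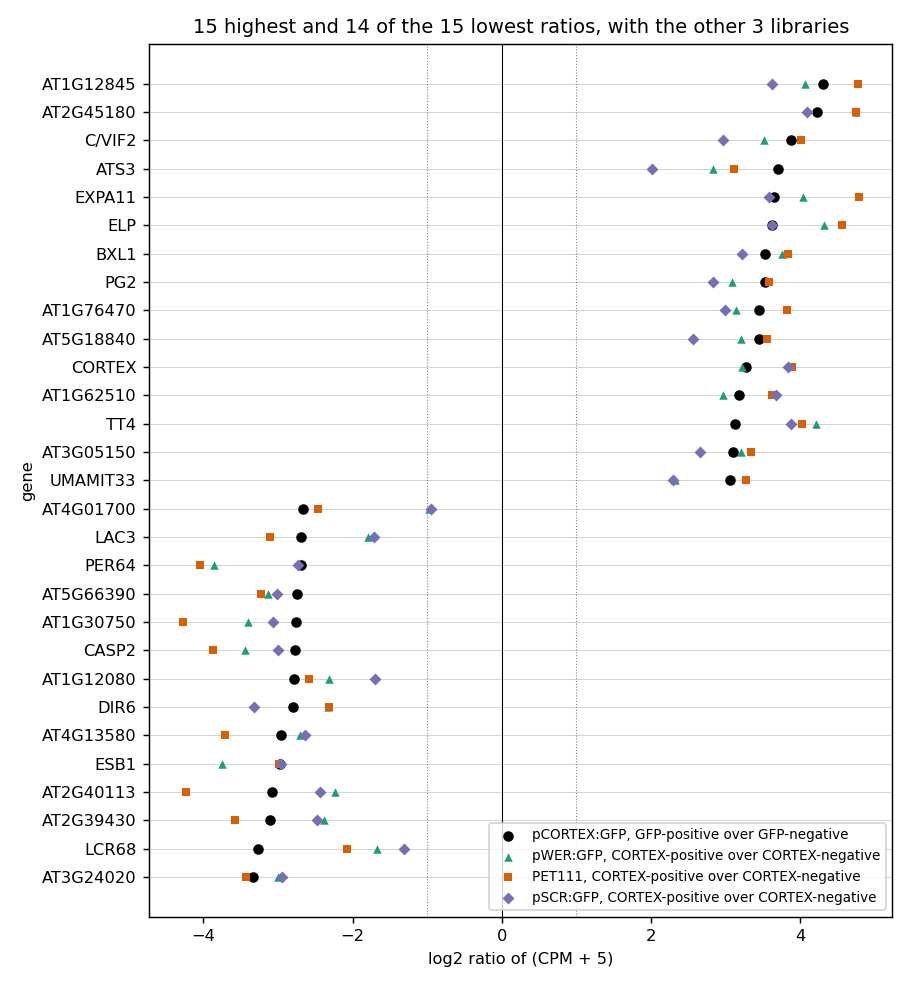
Log2 ratios of the 15 highest and 14 of the 15 lowest genes, as CPM plus 5, in GFP-positive over GFP-negative cells of pCORTEX:GFP (circles) and in CORTEX-positive over CORTEX-negative cells of the other 3 libraries (triangles, squares and diamonds, 1 point per library). All points of the 15 highest lie right of the dotted line at 1, and among the lowest AT4G01700 alone has points right of the line at -1, in pWER:GFP and pSCR:GFP.

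Flavonoid genes were higher as a group. Of 10 listed genes, 8 had at least 100 UMIs and all 8 were at least 2-fold higher in GFP-positive cells, with a median log2 ratio of 2.75 against -0.08 over all genes. TT4, at the entry of the pathway, had 1409 CPM in GFP-positive cells and 157 in GFP-negative cells. CHIL (AT5G05270), a chalcone isomerase-like protein, had 549 CPM in GFP-positive cells and 61.5 in GFP-negative cells (log2 ratio 3.06). TT5, the chalcone isomerase, had 132 CPM in GFP-positive cells and 15.4 in GFP-negative cells (log2 ratio 2.75). All 3 genes of the opening steps were far lower in GFP-negative cells. F3H, the flavanone 3-hydroxylase, had a log2 ratio of 2.81, FLS1, the flavonol synthase, 2.75, and TT7, the flavonoid 3′-hydroxylase, 1.41 at only 9.52 CPM in GFP-positive and 0.457 in GFP-negative cells. The glycosyltransferase UGT78D2 stood at 1.60, and MYB12, the transcription factor that activates the early flavonol genes, at 1.13. In the other 3 libraries 6 of the 8 genes were at least 2-fold higher with CORTEX in all 3, where MYB12 had 2.26 in pWER:GFP, 1.43 in PET111 and 1.87 in pSCR:GFP. The summed flavonoid level had quartiles of 1219, 2617 and 4423 CPM over GFP-positive cells and 12.4, 45.5 and 190.1 over GFP-negative cells. The highest cell of all, at 19393 CPM, was GFP-negative.

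Genes that build and loosen the primary wall were higher in part. All 5 primary wall cellulose synthase genes with at least 100 UMIs were at least 2-fold higher, of 6 listed, with a median log2 ratio of 1.16. CESA1 had 301 CPM in GFP-positive cells and 132 in GFP-negative cells (log2 ratio 1.16), and CEV1 (AT5G05170) 312 CPM in GFP-positive cells and 132 in GFP-negative cells (log2 ratio 1.21). CESA6, CESA2 and CESA5, which share a position in the synthase complex, had 1.12, 1.44 and 1.09. The ratios were small and close to each other, and 4 of the 5 genes were at least 2-fold higher with CORTEX in all 3 other libraries.

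Families that loosen or modify the wall held members on both sides, where 3.97% of all genes were higher and 7.04% lower. Of 17 alpha-expansins with enough UMIs, EXPA11 and EXPA8 (log2 ratio 1.40) were higher and 6 were lower, among them the root hair expansins EXPA7 (-1.79) and EXPA18 (-2.04) and also EXPA17 (-1.86). Of 24 xyloglucan endotransglucosylases, which cut and rejoin xyloglucan, XTH4 had 735 CPM in GFP-positive cells and 101 in GFP-negative cells (log2 ratio 2.81) and EXGT-A3 a log2 ratio of 1.95, while 9 were lower, from -1.11 for XTH9 to -2.42 for XTH15. Of 10 genes with a PME symbol or synonym, a list of pectin methylesterases drawn by name only, PME3 was higher (1.30) and 3 were lower. XTH4 had log2 ratios of 3.21 in pWER:GFP, 3.42 in PET111 and 2.84 in pSCR:GFP, so its difference was as large in the libraries split by CORTEX.

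Arabinogalactan proteins, heavily glycosylated proteins of the wall and cell surface, took 38896 CPM in GFP-positive cells and 20612 in GFP-negative cells. Of 50 listed genes, 41 had at least 100 UMIs, with a median log2 ratio of 0.66. Of these 41, 12 were at least 2-fold higher and 8 at least 2-fold lower, where 3.97% and 7.04% of all genes were. With no minimum of UMIs the median was 0.01, a setting that adds members near 0 in both groups. AGP7 had the highest ratio, with 3563 CPM in GFP-positive cells and 732 in GFP-negative cells (log2 ratio 2.28), and AGP26 (1.99) and the fasciclin-like FLA9 (1.70) came next. AGP14 was the most abundant of those higher, with 6341 CPM in GFP-positive cells and 2915 in GFP-negative cells (log2 ratio 1.12), and it had log2 ratios of 0.23 in pWER:GFP, 1.75 in PET111 and 0.11 in pSCR:GFP. The abundant AGP14 therefore passed 2-fold in PET111 but not in the other libraries, while AGP7 had 2.08 in pWER:GFP, 3.03 in PET111 and 1.31 in pSCR:GFP. The lower members included AGP3 (-2.11), which stood at 5016 CPM in hair-rich GFP-negative cells, and FLA11 (-2.37), known for secondary walls of stems.

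Water channels of the plasma membrane were higher in part, while none of the vacuole passed 2-fold, and the difference between the families was not tested. Of 13 plasma membrane aquaporins, all with enough UMIs, 6 were at least 2-fold higher and 1 lower (median log2 ratio 0.93). PIP2E (AT2G39010) had the highest ratio, with 123 CPM in GFP-positive cells and 19.8 in GFP-negative cells (log2 ratio 2.37), and it had 3.21 in pWER:GFP, 2.68 in PET111 and 3.17 in pSCR:GFP. PIP3 (AT4G35100) and PIP1B (AT2G45960) were more abundant, at 5101 and 3925 CPM in GFP-positive cells, against 1974 and 1379.8 CPM in GFP-negative cells. RD28 (AT2G37180) was the lower one (-1.22), and it stood at 531 CPM in endodermis-rich GFP-negative cells. None of 6 tonoplast aquaporins passed 2-fold in either direction, and the closest was DELTA-TIP at 0.89, with 1742 CPM in GFP-positive cells and 936 in GFP-negative cells.

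Genes of triterpene synthesis were split. Thalianol and marneral are root triterpenes made by clustered genes, and 4 of their 7 genes were at least 2-fold higher, with a median log2 ratio of 1.09. THAS1, which makes thalianol, had 243 CPM in GFP-positive cells and 112 in GFP-negative cells (log2 ratio 1.09), and the enzymes that modify it, CYP708A2 and CYP705A5, had 1.42 and 1.14. Of the marneral cluster CYP71A16 was higher (1.57), while the marneral synthase MRN1 stood at only 1.23 CPM in GFP-positive and 2.66 in GFP-negative cells. In PET111 the THAS1 ratio was 0.41, against 1.44 in pWER:GFP and 1.13 in pSCR:GFP.

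Transport genes differed member by member. Of 24 UMAMIT genes 4 were higher, all of them also at least 2-fold higher in all 3 other libraries. A further 2 were lower, and over all genes 3.97% were higher and 7.04% lower. After UMAMIT33 came UMAMIT34 with 56.3 CPM in GFP-positive cells and 3.20 in GFP-negative cells (log2 ratio 2.90), UMAMIT44 (2.31) and UMAMIT6 (1.17), and the lower ones were SIAR1 and WAT1. PIN4, an auxin efflux carrier, had 44.7 CPM in GFP-positive cells and 12.3 in GFP-negative cells (log2 ratio 1.52), and was the 1 of 5 PIN genes past 2-fold. EIR1 (PIN2), the carrier of epidermis and cortex, stood at 0.54, with 79.7 CPM in GFP-positive cells and 53.2 in GFP-negative cells. Most uptake carriers for nutrients that passed 2-fold lay on the other side. Of 5 genes for phosphate, sulfate and potassium uptake with enough UMIs, 4 were lower, among them the phosphate transporter PHT1;1 (-1.46) and the potassium channel KT1 (AT2G26650; -1.36). In the CORTEX split the median of these genes was -0.41 in pWER:GFP, -1.32 in PET111 and -0.50 in pSCR:GFP. Of 5 genes for nitrate and ammonium transport, NRT1.1 (-1.35), AMT1;3 (-1.37) and WR3 (-1.52) were lower, and AMT1;1 passed 2-fold in neither direction. The summed level of this list was near equal, at 203.9 CPM in GFP-positive and 206.9 in GFP-negative cells. Its median per cell was 181 CPM in GFP-positive and 159 in GFP-negative cells. AT3G21670, a nitrate transporter family gene that is also on the cortex list, was higher, with 8.65 CPM in GFP-positive cells and 0.352 in GFP-negative cells (log2 ratio 1.35).

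Among regulators of the ground tissue, 2 of 9 genes passed 2-fold and both were zinc finger genes of the same family. JKD, which limits and maintains SCR in this tissue, had 50.7 CPM in GFP-positive cells and 7.12 in GFP-negative cells (log2 ratio 2.20, counting interval 2.10 to 2.30). NUC had 27.3 CPM in GFP-positive cells and 4.95 in GFP-negative cells (log2 ratio 1.70), and MGP, a further member, 11.8 CPM in GFP-positive cells and 6.71 in GFP-negative cells (log2 ratio 0.52). SCR itself, the partner of SHR, had 8.36 CPM in GFP-positive cells and 7.73 in GFP-negative cells (log2 ratio 0.07), and SHR 0.604 CPM in GFP-positive cells and 5.30 in GFP-negative cells (log2 ratio -0.88). The ratio was thus above 2-fold for JKD and near 0 for SCR. In the CORTEX split JKD had 1.92 in pWER:GFP, 2.42 in PET111 and 1.66 in pSCR:GFP and NUC 1.27 in pWER:GFP, 1.90 in PET111 and 0.92 in pSCR:GFP, so NUC passed 2-fold in pWER:GFP and PET111 but not in pSCR:GFP. Over GFP-positive cells the quartiles of JKD were 21.5, 48.1 and 82.7 CPM, and in hair-rich GFP-negative cells it had 0.789 CPM, against 14.8 in endodermis-rich GFP-negative cells.

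**Figure D3:**
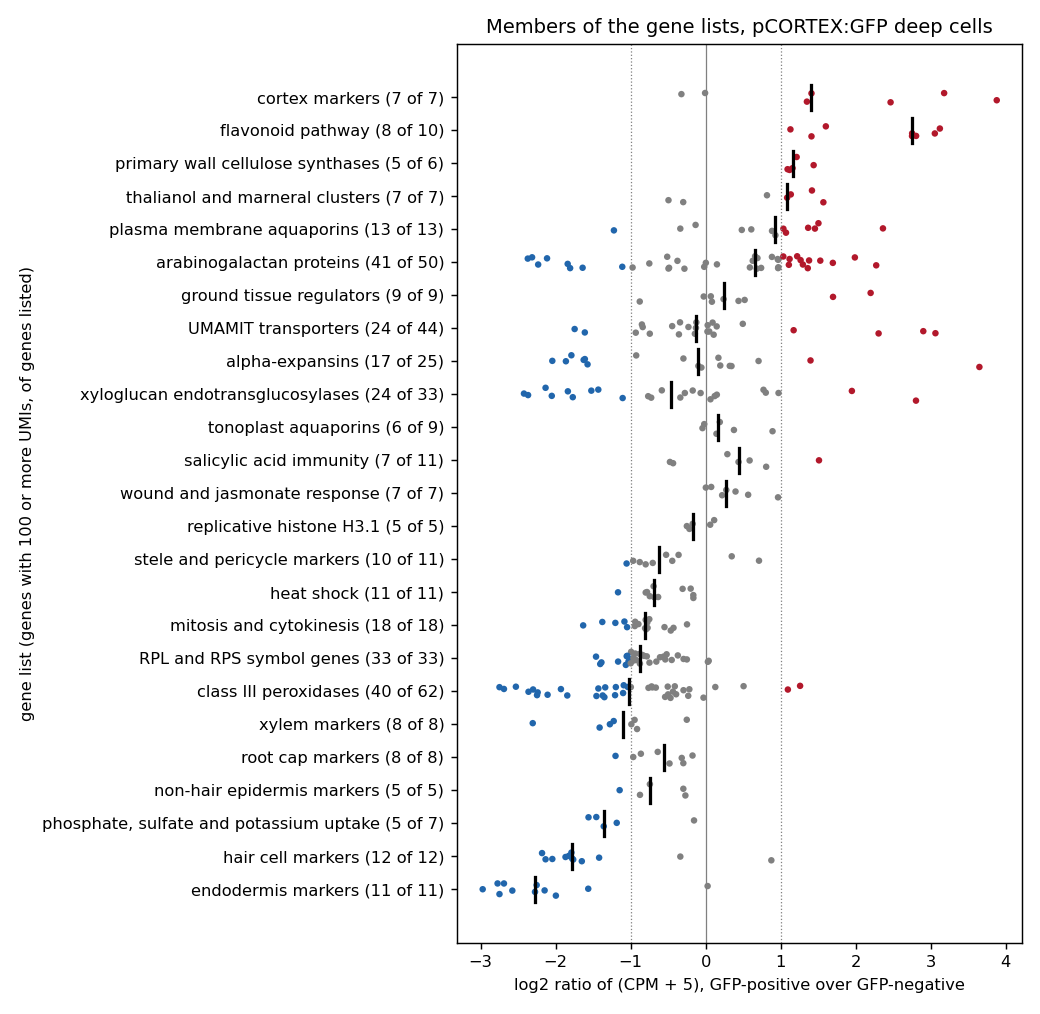
Log2 ratio (CPM plus 5) of each member of 25 gene lists in GFP-positive over GFP-negative cells, with red for at least 2-fold higher, blue for at least 2-fold lower, and a black bar at the list's median. The brackets give members with at least 100 UMIs of members listed. The flavonoid and cellulose synthase members all lie right of 1, and 10 of 11 endodermis and 10 of 12 hair markers lie left of -1.

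The lowest ratios were led by genes of the Casparian strip. Of 11 endodermis markers 10 were at least 2-fold lower, with a median log2 ratio of -2.28. ESB1, a dirigent protein that patterns the strip's lignin, had 18.5 CPM in GFP-positive cells and 179 in GFP-negative cells (log2 ratio -2.97, counting interval -3.07 to -2.88). CASP2, a membrane scaffold of the strip, had 36.5 CPM in GFP-positive cells and 279 in GFP-negative cells (log2 ratio -2.77), and the peroxidase PER64 62.7 CPM in GFP-positive cells and 431 in GFP-negative cells (log2 ratio -2.69). The other dirigent genes AT3G24020 (-3.33), AT2G39430 (-3.11) and AT4G13580 (-2.95) and the laccase LAC3 (-2.69) were also among the 15 lowest. MYB36, the transcription factor that switches on strip genes, stood at -1.57. GSO1, a receptor kinase of strip integrity, lay near 0, with 32.7 CPM in GFP-positive cells and 32.0 in GFP-negative cells (log2 ratio 0.03).

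The endodermis transcripts left in GFP-positive cells sat in few of them. The 20 GFP-positive cells highest in each gene held 97.5% of the CASP2 UMIs, 97.4% of those of PER64 and 96.3% of those of ESB1, and the median GFP-positive cell had 0 of each. Without the 16 GFP-positive cells rich in another class or in mitosis the ratio was -3.90 for CASP2, -3.63 for PER64 and -3.74 for ESB1. The median of the list was then -3.08. Of the cells left out, 3 were endodermis-rich and so were chosen by this same list. A drop in its ratios was therefore set by that choice. The part of doublets in those 16 cells was not tested. Among GFP-negative cells, too, high levels were found in a minority. The summed level of the list per cell had a median of 41.7 CPM in GFP-positive cells (95th percentile 1268) and 18.5 CPM in GFP-negative cells (95th percentile 36118), so the median cell was not lower in the GFP-positive group. The part of the greater depth of GFP-positive cells in that median was not tested. In CORTEX-positive cells of the other libraries the CASP2 ratios were -3.45 in pWER:GFP, -3.87 in PET111 and -3.00 in pSCR:GFP, and 9 of the 11 markers were at least 2-fold lower in all 3.

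Other genes among the 15 lowest were high in vascular cells. LCR68, a small cysteine-rich protein, had 21.6 CPM in GFP-positive cells and 250.3 in GFP-negative cells (log2 ratio -3.27), and its level in phloem-rich GFP-negative cells was 4520.1 CPM. AT1G12080, a vacuolar calcium-binding protein, showed the same placement, at 7232 CPM in phloem-rich GFP-negative cells and 104 CPM in GFP-positive cells. DIR6, a dirigent protein of lignan synthesis, was high both in endodermis-rich (7791 CPM) and in stele-rich (6927 CPM) GFP-negative cells, with 93.5 CPM in GFP-positive cells. The chitinase family gene AT4G01700 was instead spread over hair-rich (426 CPM) and root cap-rich (420.4 CPM) cells. Of 8 xylem markers 4 were lower, led by the protease gene XCP1 (-2.31), where 7.04% of all genes were. The 20 GFP-negative cells highest in the xylem list held 72.6% of its UMIs in that group. Its median per cell was 0 CPM in GFP-positive and in GFP-negative cells. In the CORTEX split 4 of the 8 were at least 2-fold lower in pWER:GFP, 0 in PET111, 3 in pSCR:GFP and 0 in all 3. Of 10 stele markers 1 was lower, HB-8 (-1.05), a share near that of all genes. On the same list the cytokinin receptor WOL had 72.9 CPM in GFP-positive cells and 42.5 in GFP-negative cells (log2 ratio 0.71). With 1 CPM added in place of 5 the median of the xylem markers was -2.24 in place of -1.11, and that of the stele markers -1.48 in place of -0.62.

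**Figure D4:**
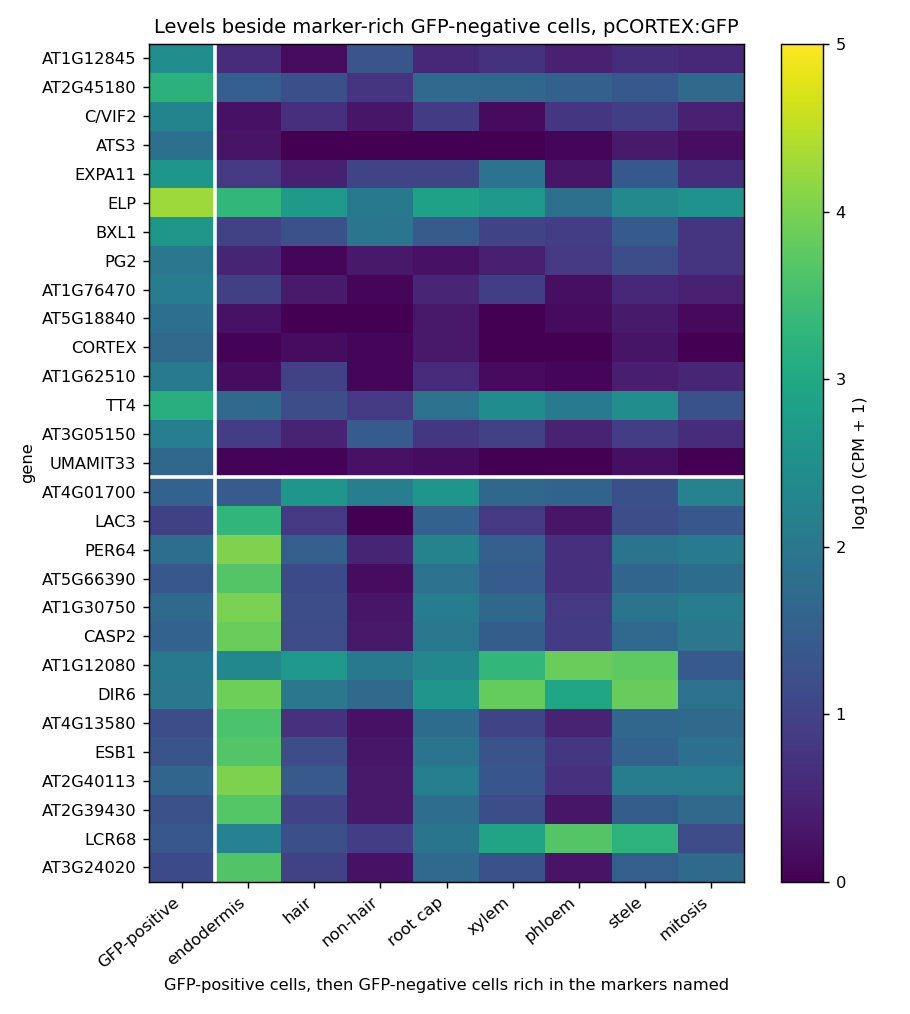
Levels, as log10 of CPM plus 1, of the 15 highest (top) and 14 of the 15 lowest (bottom) genes in GFP-positive cells (left column) and in GFP-negative cells rich in the markers of 7 classes or of mitosis. In the bottom block 11 of 14 genes are brightest in the endodermis column, while LCR68 and AT1G12080 are brightest in the phloem column and AT4G01700 in the hair column. Among those 11, CASP2, ESB1, PER64 and AT5G66390 are themselves endodermis markers that chose the cells of that column. Their brightness there was set by that choice.

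Root hair genes were mostly lower. Of 12 hair markers 10 were at least 2-fold lower, with a median log2 ratio of -1.78. RHD6 and RSL4, the transcription factors that start and sustain hair growth, had -1.82 and -1.78. ADF8, an actin-depolymerizing factor, had 14.1 CPM in GFP-positive cells and 81.5 in GFP-negative cells (log2 ratio -2.18), and XTH14 6.62 CPM in GFP-positive cells and 46.0 in GFP-negative cells (log2 ratio -2.13). The other 2 passed 2-fold in neither direction. The higher of them was LRX2, with 12.2 CPM in GFP-positive cells and 4.37 in GFP-negative cells (log2 ratio 0.88), although its paralogue LRX1 was lower (-1.42). In the other libraries LRX2 was higher with CORTEX as well, at 1.36 in pWER:GFP, 1.16 in PET111 and 0.97 in pSCR:GFP. Reads that related genes share could not be separated here. Per cell the summed hair markers had a median of 14.8 CPM in GFP-positive cells (95th percentile 167) and 0 CPM in GFP-negative cells (95th percentile 2459.9), so here too the pooled difference came from the cells with the highest levels. In the other libraries 4 of the 12 hair markers were at least 2-fold lower in all 3. Of 5 non-hair epidermis markers MYB66, which is WER, was lower (-1.15), and CPC had 50.3 CPM in GFP-positive cells and 63.0 in GFP-negative cells (log2 ratio -0.30). Of 8 root cap markers NAC015 was lower (-1.20), where 7.04% of all genes were. With 1 CPM added in place of 5 the median was -1.29 in place of -0.74 for the non-hair list and -1.32 in place of -0.56 for the root cap list.

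Class III peroxidases, which act on lignin and wall proteins, were the family with the most genes on the GFP-negative side. The list was drawn by the product name of the peroxidase superfamily, and its median log2 ratio was -1.02. Of 40 with enough UMIs, 20 were lower and 2 higher, where 7.04% and 3.97% of all genes were. AT5G17820 had the highest level of these, with 207 CPM in GFP-positive cells and 907 in GFP-negative cells (log2 ratio -2.11) and 7442 CPM in hair-rich GFP-negative cells. AT1G44970 (-2.53) stood at 1555 CPM in endodermis-rich GFP-negative cells. The 2 higher genes were AT4G37520 (1.26) and AT3G28200 (1.10). AT4G37520 was also at least 2-fold higher with CORTEX in all 3 other libraries.

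Some genes of division and of ribosomes were lower in GFP-positive cells. The 18 genes of mitosis and cytokinesis had a median log2 ratio of -0.80 (-1.89 with 1 CPM added in place of 5). Their sum was 37.8 CPM in GFP-positive and 148 in GFP-negative cells. Of the 18, 5 were at least 2-fold lower and none higher, where 7.04% and 3.97% of all genes were. Among them were SYP111, the syntaxin of the cell plate, with 4.88 CPM in GFP-positive cells and 20.7 in GFP-negative cells (log2 ratio -1.38), and the Aurora kinases AUR1 (-1.20) and AUR2 (-1.63). The median of the list was -0.85 in pWER:GFP, -1.14 in PET111 and -0.52 in pSCR:GFP, and 0 of the 18 passed 2-fold in all 3. Mitosis markers were at 0 in 49.1% of GFP-positive and 40.8% of GFP-negative cells. The 5 genes of histone H3.1, which is packed onto new DNA, are near-identical copies and were read as a sum, at 1539.8 CPM in GFP-positive and 1590.3 in GFP-negative cells. Of 33 genes with RPL or RPS symbols, a list drawn up after values were seen, 9 were lower and none higher (median -0.88). Their sum was 11801 against 22659.5 CPM. Drawn by symbol, the list did not set apart nuclear genes for ribosomes of organelles, and it is not the full set of ribosomal genes. Under the other list of ribosomal genes, by product name, 8 of 20 were lower. The median of the RPL and RPS genes was -0.53 in pWER:GFP, -1.18 in PET111 and -0.40 in pSCR:GFP.

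Among heat, wound and salicylic acid genes 1 was at least 2-fold higher and 1 lower, and over all genes 3.97% were higher and 7.04% lower. Of 11 heat shock genes HSP17.6II was lower (-1.17) and none was higher, with 66.6 CPM for the sum in GFP-positive and 134 in GFP-negative cells. The median of the heat shock genes was -0.68 here and 0.36 in pWER:GFP, -0.25 in PET111 and -1.01 in pSCR:GFP, so its sign differed between libraries. None of 7 wound and jasmonate genes passed 2-fold, and JAZ7 came closest at 0.97. Of 7 salicylic acid genes EDS5, the exporter of a salicylic acid precursor from plastids, was higher, with 94.2 CPM in GFP-positive cells and 29.8 in GFP-negative cells (log2 ratio 1.51). EDS5 had 1.20 in pWER:GFP, 1.79 in PET111 and 0.81 in pSCR:GFP in the CORTEX split, and 182 CPM in endodermis-rich GFP-negative cells. Of 27 genes with an IAA symbol or synonym, IAA1 (-2.05) and IAA2 (-1.10) were lower and none was higher, a share near the 7.04% of all genes. Most of that list are Aux/IAA repressors of auxin response. It was drawn by name, however, and also took in ARF19, MP and NPH4, which are auxin response factors and not Aux/IAA repressors.

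GFP-positive cells differed in how much GFP they held, with a median of 4 UMIs, an upper quartile of 9 and a highest cell of 48, and 107 cells had 1 UMI. They were binned as 1, 2 to 4, 5 to 9, and 10 or more GFP UMIs, with 107, 110, 101 and 89 cells, beside the 2658 cells at 0. Depth was higher at each step over the 5 bins, with medians of 54140.5, 61012, 85577, 88605 and 112734 UMIs per cell, and its part in the values below was not tested. CORTEX had 0.800, 7.61, 31.5, 67.9 and 89.7 CPM in order of GFP, and the share of cells with a CORTEX UMI was 3.24%, 38.3%, 84.5%, 97.0% and 100%. CORTEX and GFP thus went together also within GFP-positive cells.

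Gene groups followed different courses over the bins. The summed flavonoid level was higher at each step, with 348, 1379.5, 2199, 3359 and 4070.3 CPM, and the summed alpha-expansins were lower at 1 GFP UMI than at 0 and higher at each later step, with 644, 442, 527, 783 and 993 CPM. Endodermis markers were lower at each step, with 3029.7, 1489.5, 655, 221 and 19.9 CPM. The 20 GFP-positive cells highest in this list held 89.4% of its UMIs in that group, so these pooled values rest on few cells. Cortex markers, by contrast, were level from 2 GFP UMIs on, at 35.7, 246, 484, 492 and 459 CPM, and so were the cellulose synthases, at 424, 716, 1030.1, 1161 and 1074 CPM. Another course had its highest level in the middle. Plasma membrane aquaporins had 7652, 17491, 22064, 16168 and 11636 CPM, tonoplast aquaporins 3382, 5854, 6238, 3562 and 1936 CPM, and arabinogalactan proteins 20612, 38313, 51670.5, 39338 and 27449 CPM. The thalianol and marneral genes were highest in cells with 1 GFP UMI, at 459.9, 1526, 1326, 920.0 and 657 CPM. As single genes, CHIL stood at 61.5, 211, 360.0, 623 and 921 CPM and AGP14 at 2915, 7546, 10055, 5944 and 2379 CPM.

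**Figure D5:**
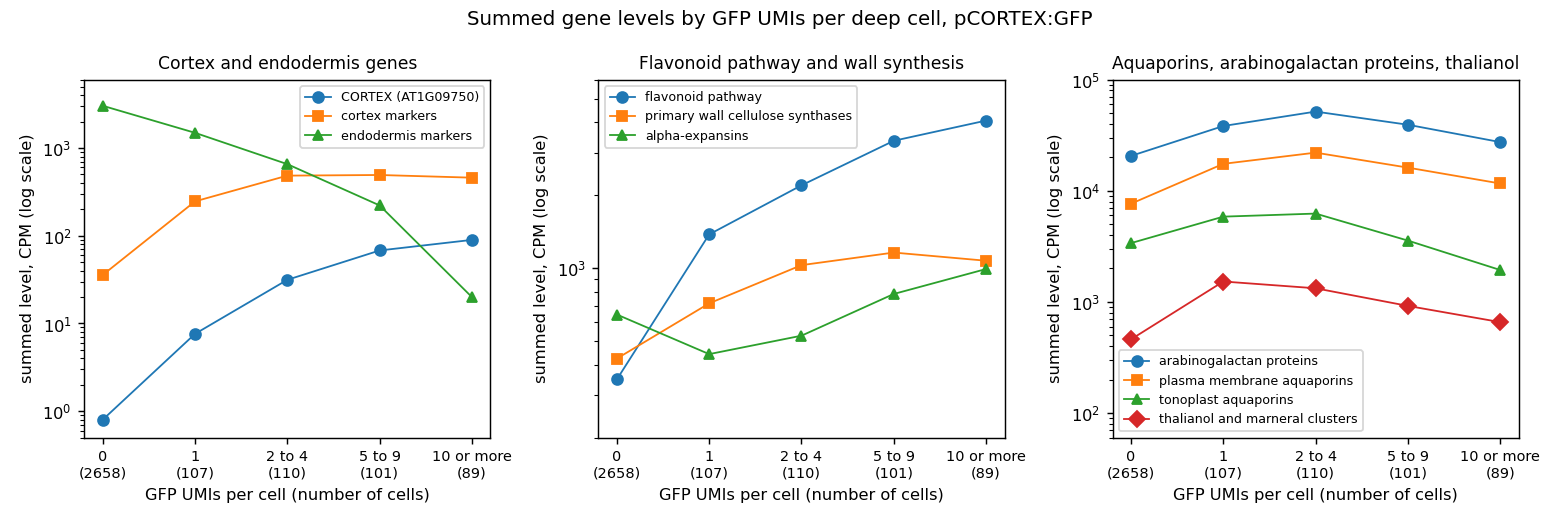
Summed levels of gene lists and of CORTEX, in CPM on log axes, over 5 bins of GFP UMIs per deep cell of pCORTEX:GFP, with the number of cells of each bin under the axis and 1 pooled value per point. The line of the flavonoid genes climbs over all bins, that of the endodermis markers drops, and arabinogalactan proteins and aquaporins are highest at 2 to 4 GFP UMIs.

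A similar order appeared when correlations were read over the 407 GFP-positive cells, which share 1 library and differ in depth. GFP in CPM had a Spearman rho of 0.57 with the flavonoid sum, 0.52 with the cellulose synthases, 0.54 with the UMAMIT genes and 0.50 with the alpha-expansins. It had -0.43 with the class III peroxidases, -0.28 with the endodermis markers and -0.00 with the arabinogalactan proteins. GFP in CPM had -0.33 with the depth of the cell, and the part of depth in these values was not tested. With H3.1, rho was 0.63 for the RPL and RPS genes and 0.55 for mitosis, and it was -0.60 for tonoplast aquaporins and -0.57 for arabinogalactan proteins. GFP itself had -0.03 with H3.1.

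GFP-positive cells also differed in H3.1, and a split by its level, chosen with values known, set other groups of genes apart. The 88 cells with at least 1000 CPM of H3.1 were the H3.1-high cells and the 319 below it the H3.1-low cells, and 15 cells lay within 20% of that value. Their median depths were 118166 and 79348 UMIs. CORTEX was seen in 79.5% of the H3.1-high cells (69.6 to 87.4%) and 78.7% of the H3.1-low cells (73.8 to 83.0%), a difference within the intervals. Flavonoid genes had 2494 CPM in the H3.1-high cells and 2977 in the H3.1-low cells. Arabinogalactan proteins had 18398 CPM in the H3.1-high cells and 48398 in the H3.1-low cells, and tonoplast aquaporins 1190.5 CPM in the H3.1-high cells and 5735 in the H3.1-low cells. The thalianol and marneral genes had 326 CPM in the H3.1-high cells and 1436 in the H3.1-low cells. The RPL and RPS genes ran the other way, with 19467 CPM in the H3.1-high cells and 8247 in the H3.1-low cells. Of single genes, C/VIF2 had 52.8 CPM in the H3.1-high cells and 239 in the H3.1-low cells and PIN4 5.57 CPM in the H3.1-high cells and 62.8 in the H3.1-low cells, whereas JKD had 49.6 CPM in the H3.1-high cells and 51.3 in the H3.1-low cells. The flavonoid genes and JKD were therefore near level across this split, and the aquaporins and arabinogalactan proteins were not.

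GFP and CORTEX named partly different cells, and gene groups differed in how they stood where either was seen without the other. Among deep cells, 321 had both, 86 had GFP without CORTEX, 86 had CORTEX without GFP and 2572 had neither, with median depths of 93371, 63785, 70475 and 53575 UMIs. In that order ELP had 20368, 9207, 9363 and 1186 CPM, and AT1G12845 331, 63.9, 85.5 and 6.64 CPM. The flavonoid sum was likewise lower in both groups with a single marker than in cells with both, at 3166, 1292, 1389.6 and 308 CPM. The thalianol and marneral genes were instead higher in those groups, at 1001, 1455, 1107 and 435 CPM, and plasma membrane aquaporins were near level across the first 3 groups, at 16518, 17437, 16001 and 7332 CPM. CASP1, a further scaffold of the Casparian strip, had 126, 810.4, 136 and 1276 CPM. Its pooled level was thus higher in cells with GFP alone than in cells with CORTEX alone, and the part of a few cells in that was not tested. Split on CORTEX in place of GFP, the deep cells of this line gave 704 higher genes (3.83%) and 1303 lower ones (7.08%). Within GFP-negative cells alone, 367 of the 729 higher genes were at least 2-fold higher in the 86 cells with CORTEX, where 2.9% of all genes were, and 436 of the 1295 lower genes were at least 2-fold lower, where 2.76% were. Among 7137 shallower barcodes, 124 had GFP, and 423 of the 730 higher genes were at least 2-fold higher in them, where 3.56% of all genes were, as were 438 of the 1295 lower genes on the other side, where 7.83% were.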

How the data were processed

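The deposited tables hold UMI counts per gene and barcode, as a comma-separated table per library, and were read into sparse matrices. Per the submitters' processing notes, Cell Ranger 7.1.0 and Seurat were used. Their settings, the genome build and any filter on barcodes are not given in the sources used here. Libraries were made with Chromium 3′ v3.1 chemistry, per the labels' protocols, and the deposited counts were used as they were, with no ambient RNA correction.

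Barcodes were kept from 20000 UMIs upward if organelle rows held no more than 10% of them. Counts were summed over GFP-positive and GFP-negative cells and divided by each group's total to give CPM. Genes with at least 100 UMIs over both groups were compared as log2 ratios after adding 5 CPM, and 2-fold was the limit. Intervals are exact Poisson for levels and Clopper-Pearson for shares, at 95%. Thinning drew 20000 UMIs per cell without replacement with a fixed seed, and the ratio step was tested on simulated data. Python 3.11.15, numpy 2.4.6, pandas 2.3.3 and scipy 1.17.1 were used. Symbols came from the RefSeq TAIR10.1 table, matched by locus.

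The members and gene lists were chosen with earlier results of these data known. Genes named are the 15 highest and 15 lowest ratios, CORTEX, the 5 higher genes with the highest mean ratio in the other libraries, and for each list up to 4 most abundant members and any past 2-fold. Other list members named for contrast, such as MGP, SHR, CPC and MRN1, were chosen after their values were seen. Of the 15 lowest genes, 1 is not reported here. Alternatives changed the GFP limit, depth limits, organelle limit, thinning, weighting, denominator, pseudocount, gene filter, centring, negative cells and split gene, and 1 more, without the 16 cells of other classes, was chosen after seeing the data.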

Additional observations from a re-analysis of the deposited data

Results flagged for a closer look

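GFP was also seen in barcodes that the depth limit left out. Of the 7137 barcodes with fewer than 20000 UMIs and within the organelle limit, 124 had a GFP UMI, 1.74% (exact Clopper-Pearson 95% interval 1.45 to 2.07%), a signal in barcodes that the main comparison does not use. They held 187 GFP UMIs. A CORTEX UMI was seen in 24 of these 124 barcodes, 19.4%, and in 1.03% of the barcodes without GFP, at median depths of 6010 and 3467 UMIs. Split by GFP, these shallow barcodes gave 656 genes at least 2-fold higher and 1440 at least 2-fold lower. The 15 highest genes had log2 ratios of 1.98 to 4.21 in shallow barcodes. Among the lowest genes LCR68 (-0.49), LAC3 (-0.65), ESB1 (-0.67), AT3G24020 (-0.76) and AT5G66390 (-0.94) did not reach 2-fold lower there, and none of the 12 hair markers did. THAS1 (0.24) and MYB12 (0.31), higher in deep cells, did not reach 2-fold either. Of the 9 deep barcodes over the organelle limit, 0 had GFP. The part of free RNA in the GFP of shallow barcodes was not tested.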

How the results depend on the processing

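The counts of 730 higher and 1295 lower genes lay between 681 and 880 and between 1074 and 1807 under 15 of the 16 alternatives, and a pseudocount of 1 CPM gave 1153 and 3069. None of the alternatives reversed the direction of a value past 2-fold. With cells thinned to 20000 UMIs, 693 genes were higher and 1720 lower, of which 609 and 1204 were the same genes as above. The log2 ratio of CORTEX, 3.28, was 3.57 with at least 2 GFP UMIs, 3.19 above 50000 UMIs and 3.81 between 20000 and 100000 UMIs. It was 3.64 with thinning, 3.60 as a mean over cells and 4.86 with a pseudocount of 1 CPM. Against cells with 0 CORTEX UMIs it was 3.49, and with cells split on CORTEX it was 3.58. In those last settings CORTEX itself chose cells, so neither value is a check on its ratio. The share of GFP-positive cells with a CORTEX UMI was 52.1% with thinning, 93.3% with at least 2 GFP UMIs, 74.2% above 10000 UMIs and 74.4% between 20000 and 100000 UMIs, and that of GFP-negative cells 1.50% with thinning. The count of 238 genes higher in all 3 other libraries was 406 with at least 2 CORTEX UMIs, 417 with a pseudocount of 1 CPM, and 246 to 373 with 1 of the 3 libraries left out. The cause of these shifts was not tested. The medians of the tonoplast aquaporins, SWEET genes and wound genes, all within 2-fold, took either sign. No paired analysis was possible because each line had 1 library. Doublets were not called, and free RNA, which sets a floor under shares of cells with a UMI, was not removed. Genes near 5 CPM have their ratios held toward 0 by the pseudocount, and shares of weak genes are limited by depth.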

Other observations

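Regulators of the stem cell niche and some other small lists hold genes of a few CPM or less, whose ratios depend on the 5 CPM added. Of 4 PLETHORA genes with at least 100 UMIs, which maintain the root meristem, none passed 2-fold, and AIL6 had 2.10 CPM in GFP-positive cells and 8.52 in GFP-negative cells (log2 ratio -0.93). The median of the list was -0.55, and -1.55 with 1 CPM added. Of 4 phloem markers none passed 2-fold with 5 CPM added, yet their sum was 0.338 CPM in GFP-positive and 6.18 in GFP-negative cells, and APL, the regulator of phloem identity, had 0.0967 CPM in GFP-positive cells and 3.55 in GFP-negative cells. The median of the phloem list was -0.19, and -0.73 with 1 CPM added. Of 4 SWEET sugar transporters SWEET16 was lower (-1.02), where 7.04% of all genes were. SWEET17, a fructose transporter of the vacuole, had 45.5 CPM in GFP-positive cells and 30.3 in GFP-negative cells. Of 5 beta-expansin and expansin-like genes EXLA2 was lower (-1.16), although its ratio with CORTEX in pWER:GFP was 0.76.

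The most abundant Aux/IAA genes lay on the GFP-positive side without passing 2-fold. IAA16 had 612 CPM in GFP-positive cells and 349 in GFP-negative cells (log2 ratio 0.80), and AXR3 600.3 CPM in GFP-positive cells and 303 in GFP-negative cells (log2 ratio 0.97). In the CORTEX split AXR3 had 0.95 in pWER:GFP, 1.31 in PET111 and 0.75 in pSCR:GFP. IAA28 had 309 CPM in GFP-positive cells and 165 in GFP-negative cells (log2 ratio 0.89) and 0.24 in pWER:GFP, 1.33 in PET111 and 0.16 in pSCR:GFP in the CORTEX split, so it passed 2-fold in PET111 but not in the other libraries.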
